A study of Mus musculus with 2 samples.

Results

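The genes described here encode the 3 D cyclins, the kinases they activate, 4 inhibitors of those kinases and the retinoblastoma protein, and the data are peaks of the acetyltransferase EP300 near them in newborn mouse heart. The members are Ccnd1, Ccnd2, Ccnd3, Cdk4, Cdk6, Cdkn1a, Cdkn1b, Cdkn1c, Cdkn2c and Rb1. A peak was counted for a member when its summit lay within 100 kb of a start site of a protein-coding transcript (mm10, GENCODE M21) of that member and no such start site of another gene was nearer. By this rule 28 of the 17372 peaks of the optimal list, or of the 15570 that could be assigned to any gene, belonged to the 10 members. The assay was ChIP-seq, in which DNA bound by EP300 is pulled down with an antibody and sequenced, on whole heart tissue of B6NCrl mice at postnatal day 0. The 2 libraries, replicates 1 and 2, carry no treatment or allele in the labels, and sex was not collected. Both replicates are labelled with the same biosample and the same donor, so the spread between them may be technical. There was 1 group, and therefore no comparison between conditions and no test.

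D cyclins bind the kinases CDK4 and CDK6 when growth signals arrive, and the active complexes phosphorylate the retinoblastoma protein, which then releases E2F factors and lets the cell enter S phase. Inhibitors of the INK4 family, such as the product of Cdkn2c, bind CDK4 and CDK6 directly, while those of the CIP/KIP family, the products of Cdkn1a, Cdkn1b and Cdkn1c, bind cyclin-kinase complexes. Heart muscle cells divide before birth and most of them leave the cell cycle in early postnatal life. EP300 is a coactivator that acetylates histones at enhancers and promoters.

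Whole tissue holds several cell types, and from which of them a peak came cannot be told apart here. Of 9 heart muscle marker genes 8 had a peak, 92 peaks in all, between 0 at Myl7 and 27 at Myh6. All 4 endothelial markers had peaks (4 to 10 each, 23 in all), as did 2 of 4 fibroblast markers (1 each, with Pdgfra and Tcf21 at 0), while the blood and macrophage markers Ptprc, Csf1r and Hbb-bs were at 0. Genes of organs other than heart also had peaks: 2 of 4 liver genes (Ttr and G6pc, 1 peak each) and 2 of 4 neuronal genes (Rbfox3 and Syt4, 2 each), and the stronger Rbfox3 peak had a signal of 93.7, rank 483. The share of these cell types in the members' peaks was not tested. The files hold no read counts, so the depth is unknown. Peaks are described by the signal that the authors gave them, whose formula is not stated, and by their rank by signal within a list. Signal in the optimal list runs from 6.91 to 310.9 with a median of 30.6. The full lists of replicate 1, replicate 2 and the pooled reads hold 300000 calls each, most of them weak, so a call there is a low bar. The 17372 strongest calls of a replicate list, as many as the optimal list holds, are called its leading peaks.

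All 10 members had at least 1 peak, where 31.9% of 21829 protein-coding genes did. The members were chosen with earlier results of these data known, so this count is a description of the list and no evidence about cell cycle genes. The median was 2.0 peaks per member, which is also the median over the 6960 genes with a peak, against 0.0 over all genes. Ccnd3 had 7 peaks, a number reached by 1.31% of genes, or 287 of the 6960 genes with a peak. Cdkn1b had 5, reached by 3.04%, or 663 of the 6960. Ccnd1 and Cdkn1a had 3 each, reached by 8.53%, or 1861 of the 6960. Ccnd2, Cdk6, Cdkn2c and Rb1 had 2, reached by 16.1%, or 3511 of the 6960. Cdk4 and Cdkn1c had 1, the least that a gene with a peak can have. Some of the 28 peaks are neighbouring calls closer than the 496 bp width of a peak. Joining them left 23 sites, with 5 at Ccnd3, 3 at Cdkn1b and 1 at Cdkn2c. The signal of the 28 peaks ranged from 8.57 to 114.5 with a median of 30.6, the same as that of all assigned peaks.

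Distal peaks outnumbered promoter peaks, and the members are grouped here by role. Of the 28 summits 8, or 28.6% (95% exact interval 13.2% to 48.7%, counting error only), were within 1 kb of a protein-coding start site, against 37.3% of all assigned peaks. The interval holds the value of all peaks. It counts the 28 summits as independent, although some are neighbouring calls of 1 site. The D cyclins had 12 peaks in the optimal list, all distal. The kinases had 2 promoter peaks and 1 distal peak, the CIP/KIP inhibitors 4 and 5, Cdkn2c 2 promoter peaks and Rb1 2 distal peaks. A promoter peak was present at 5 of the 10 members (Cdk4, Cdk6, Cdkn1a, Cdkn1b and Cdkn2c) and a distal peak at 8. Over all protein-coding genes the shares were 19.0% and 19.3%. The promoter peaks of Cdk6 and Cdkn1a count as such only through start sites inside those genes. With 1 start site per gene the promoter-proximal share of the member peaks was lower than 28.6%. Since every member had a peak, the 6960 genes with a peak are the closer comparison. Of those, 4146 had a promoter peak and 4209 a distal one. The distal peaks lay in introns at 10 summits and between genes at 8, and the other two lay in the untranslated region of Bysl.

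**Figure D1:**
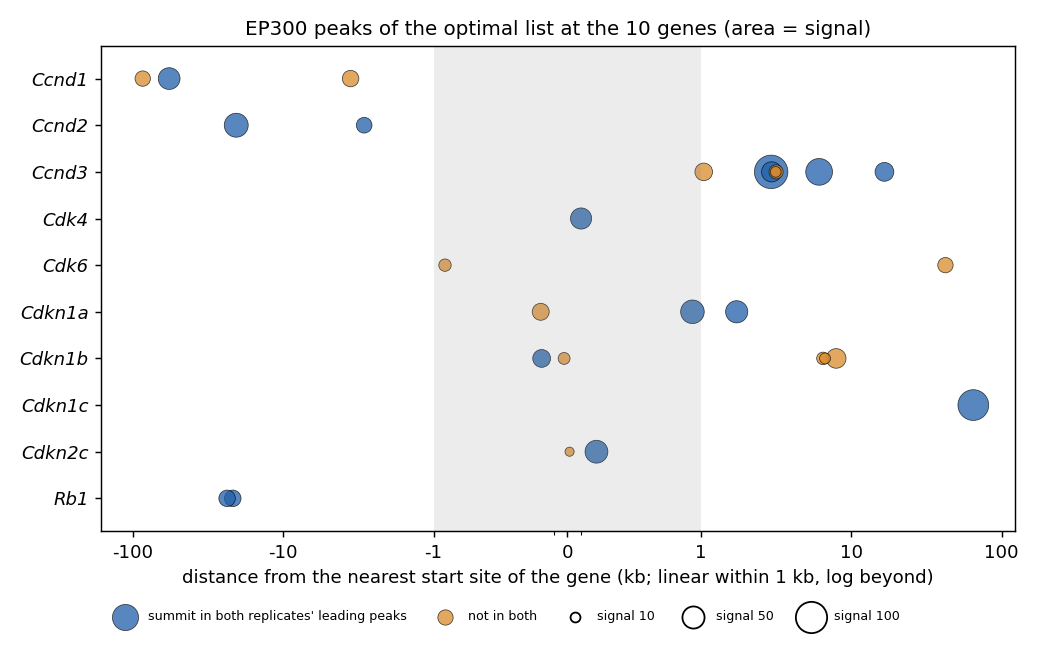
Each point is 1 peak of the optimal list, placed by its distance in kb from the nearest start site of the gene named on the left (negative is upstream, grey marks 1 kb on either side), with an area proportional to the signal. The 12 peaks of the 3 D cyclins all lie outside the grey band, while all 3 peaks of Cdk4 and Cdkn2c lie inside it.

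Among the D cyclins, Ccnd3, which encodes cyclin D3, carried the strongest and most numerous peaks. Its strongest peak (chr17:47507926-47508421) lay in an intron, 2933 bp downstream of the nearest of its 15 start sites, and had a signal of 114.5, rank 229 of the optimal list. The signal there was 72.2 in replicate 1 (rank 174) and 34.4 in replicate 2 (rank 997). Signals of different lists are not on a stated common scale, so the ranks are the values to compare. The 2 ranks place the site among the leading calls of both libraries, higher in replicate 1. A second intronic peak, 6115 bp from the same start site (chr17:47511108-47511603), had a signal of 73.2, rank 1143, with rank 1929 in replicate 1 and 1661 in replicate 2. Another intronic site, 16624 bp from the same start site, reached 36.2, with ranks 8657 and 6957. At the other end of the gene, near the start sites of the shorter transcripts, a peak 1045 bp downstream, just beyond the 1 kb limit for promoters, reached 31.7. It ranked 3960 in replicate 1 and only 41274 in replicate 2, outside the leading peaks, and was absent from the conservative list.

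The last Ccnd3 site lay behind the gene, in the untranslated region of the neighbouring ribosome assembly gene Bysl, which runs towards Ccnd3. Its main call, 2956 bp from the nearest Ccnd3 start site, had a signal of 41.7 with rank 14631 in replicate 1 and 1917 in replicate 2, the opposite order to the first intronic site. The remaining 2 calls of Ccnd3 (11.6 and 20.2) adjoin stronger ones and were joined with them in the merged sites. No Ccnd3 promoter call entered the optimal list, although the pooled list held 9 calls within 1 kb of its start sites, the strongest at rank 11870. The conservative list held 1 of them, 207 bp upstream of a start site, with a signal of 24.2 and rank 11220, so that the absence of D cyclin promoter peaks holds for the optimal list and not for the conservative one. The 2 leading intronic sites of Ccnd3 are given as the 200 bp around each summit (GRCm38 sequence, 5′ to 3′), since they are the strongest D cyclin sites. Capitals mark matches to any of the 20 motifs described further on. In the first they are GC boxes and a glucocorticoid receptor palindrome, in the second an AP-1 site, an NKX2 site and an E-box.
Ccnd3 intron, first site, chr17:47508074-47508273, plus strand: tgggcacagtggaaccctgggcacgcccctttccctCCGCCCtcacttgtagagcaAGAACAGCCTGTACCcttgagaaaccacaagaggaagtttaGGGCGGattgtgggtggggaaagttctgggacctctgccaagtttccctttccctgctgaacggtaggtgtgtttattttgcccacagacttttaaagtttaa
Ccnd3 intron, second site, chr17:47511256-47511455, plus strand: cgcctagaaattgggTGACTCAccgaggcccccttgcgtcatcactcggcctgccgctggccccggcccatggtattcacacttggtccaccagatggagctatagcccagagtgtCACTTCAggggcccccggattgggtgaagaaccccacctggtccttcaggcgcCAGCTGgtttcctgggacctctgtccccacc

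Ccnd2, which encodes cyclin D2, had its stronger peak 20494 bp upstream (chr6:127172439-127172934), in an intron of the antisense RNA gene 9330179D12Rik. Among start sites of all gene types the nearest to it was that of the pseudogene Gm18995, at 5112 bp. Its signal was 58.6, rank 2099, and the ranks of 2641 and 3225 in replicates 1 and 2 were close to each other. The other peak, 2891 bp upstream in the same antisense gene (chr6:127154836-127155331), reached 25.2, with ranks of 9838 and 13058. Both stood among the leading peaks of both replicates. Over the Ccnd2 start sites the optimal list held no peak, but the conservative list, also deposited by the authors, held 2 calls within 1 kb, the stronger with a signal of 15.7. The upstream windows are shown because they are the 2 Ccnd2 sites. The distant one has a CCAAT box in capitals, and the near one a STAT site, a cyclic AMP response element and a GC box.
Ccnd2, 20494 bp upstream, chr6:127172587-127172786, plus strand: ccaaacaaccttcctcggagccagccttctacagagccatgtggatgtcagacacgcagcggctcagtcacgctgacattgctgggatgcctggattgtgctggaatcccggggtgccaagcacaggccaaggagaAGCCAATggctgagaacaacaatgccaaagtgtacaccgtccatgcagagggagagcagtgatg
Ccnd2, 2891 bp upstream, chr6:127154984-127155183, plus strand: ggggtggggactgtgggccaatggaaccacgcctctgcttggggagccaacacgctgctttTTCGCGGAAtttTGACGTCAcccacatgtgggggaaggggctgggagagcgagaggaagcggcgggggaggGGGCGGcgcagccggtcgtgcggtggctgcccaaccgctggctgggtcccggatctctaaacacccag

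Ccnd1, which encodes cyclin D1, had 3 peaks, all upstream and outside genes. The strongest lay 57239 bp upstream (chr7:144996860-144997355) with a signal of 48.4, rank 3387, and ranks of 3687 in replicate 1 and 2851 in replicate 2. It was the only Ccnd1 peak found among the leading peaks of both replicates. A peak 85793 bp upstream reached 24.1 and ranked 18453 and 25923. A peak 3559 bp upstream reached 27.8, with rank 6196 in replicate 1 and 191184 in replicate 2. These ranks differed most among the member peaks with a call in both libraries. The replicate 2 call, of signal 4.77, had its summit 199 bp away and may not be the same site. The conservative list did not hold the peak. Between that peak and the gene, 1913 bp upstream, the pooled list held a call of higher signal, 33.8 (rank 7596), that is in the conservative list (rank 7078) and not in the optimal one. The call ranked 22625 in replicate 1 and 6619 in replicate 2. The replicate 2 list also held a call 1788 bp upstream at rank 2260, its strongest for Ccnd1. A further peak of 31.8 lay 108069 bp upstream, just beyond the 100 kb limit, and was not counted. The window of the strongest site is shown because it was the Ccnd1 site among the leading peaks of both libraries. It holds no match to a searched motif.
Ccnd1, 57239 bp upstream, chr7:144997008-144997207, plus strand: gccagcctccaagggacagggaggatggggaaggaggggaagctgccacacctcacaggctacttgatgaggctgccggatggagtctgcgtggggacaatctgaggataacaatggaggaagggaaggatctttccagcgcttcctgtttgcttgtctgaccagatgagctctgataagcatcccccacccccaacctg

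The kinase genes had fewer peaks. The promoter of Cdk4 held 1 (chr10:127063460-127063955), 104 bp downstream of a start site in the untranslated region, with a signal of 45.8 and rank 3894. Replicate 1 had it at rank 5986 and replicate 2 at rank 4225, so both libraries held it among their leading peaks. Cdk4 lies in a gene-dense stretch, and only 5.21 kb of sequence is nearer to it than to other genes, against 202.6 kb for Cdk6. Both peaks of Cdk6 were weak. An intronic promoter peak 914 bp upstream of a start site inside the gene reached 15.7 (ranks 31492 and 46592). A peak 42298 bp inside the gene reached 24.1 (ranks 42984 and 27649). Neither stood among the leading peaks of a replicate or in the conservative list, and Cdk6 was the only member without a peak there.

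Cdkn1c, which encodes the CIP/KIP inhibitor p57, was assigned a single strong peak inside another gene. It lay in an intron of Kcnq1, a potassium channel gene of the same imprinted domain (chr7:143395087-143395582), 64827 bp downstream of the Cdkn1c start site. Its signal was 96.8, rank 425, with rank 368 in replicate 1 and 1243 in replicate 2, the second place among the members in both libraries. The assignment is one of distance only. The start sites of Kcnq1 itself were further away, and the next protein-coding start site was that of Slc22a18 at 78401 bp. Among start sites of all gene types the nearest was that of the antisense gene 4933417O13Rik, at 30710 bp. With a limit of 50 kb Cdkn1c had no peak. At the promoter of Cdkn1c the strongest pooled call reached 17.4 (rank 24906), and the calls ranked 17542 in replicate 1 and 58136 in replicate 2. The window is shown because it is the strongest inhibitor site, and the capitals in it mark a TEAD site.
Kcnq1 intron, assigned to Cdkn1c, chr7:143395235-143395434, plus strand: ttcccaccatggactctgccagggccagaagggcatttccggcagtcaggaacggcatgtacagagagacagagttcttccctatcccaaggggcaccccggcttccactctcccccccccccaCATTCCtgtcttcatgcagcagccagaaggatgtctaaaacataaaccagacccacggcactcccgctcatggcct

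Cdkn1a, which encodes the p53 target p21, had 3 peaks, each within 2 kb of one of its start sites. The strongest lay in an intron (chr17:29094470-29094965), 937 bp downstream of a start site inside the gene. It had a signal of 56.97, rank 2256, and ranks of 2086 and 4595 in replicates 1 and 2. Next to it an intronic peak at 1731 bp (chr17:29095264-29095759) reached 50.3, with ranks of 4610 and 2469. Both were leading peaks in both libraries. The peak nearest to a start site was the weakest at 29.5. It lay in an intron, 198 bp upstream of a start site inside the gene. It ranked 7688 in replicate 1 but 25663 in replicate 2. A transcript of the class "to be experimentally verified", AC167363.2, starts 257 bp from the strongest summit, so that summit is nearer to it than to Cdkn1a when all gene types compete. The window of the strongest peak is shown because it holds, besides a GC box, the other glucocorticoid receptor palindrome of the 28 windows.
Cdkn1a intron, 937 bp downstream, chr17:29094618-29094817, plus strand: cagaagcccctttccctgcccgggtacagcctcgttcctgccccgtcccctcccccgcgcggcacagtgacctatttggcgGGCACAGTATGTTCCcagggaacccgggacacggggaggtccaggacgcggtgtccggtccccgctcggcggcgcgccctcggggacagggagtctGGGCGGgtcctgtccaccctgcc

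Cdkn1b, which encodes the CIP/KIP inhibitor p27, had 2 overlapping calls at its promoter and 3 behind the gene. The stronger promoter call, 191 bp upstream (chr6:134919962-134920457), reached 32.5, with rank 13945 in replicate 1 and 7175 in replicate 2. The overlapping one, 23 bp upstream, reached 14.5 and had no call of its own in replicate 1. The strongest Cdkn1b peak, 39.4, lay 7940 bp downstream (chr6:134928205-134928700) and 639 bp from the start of Lockd, a long non-coding RNA gene. It ranked 31099 in replicate 1 and 1817 in replicate 2, and so was a leading peak in replicate 2 alone. The conservative list held none of the 3 calls behind the gene. The 2 weaker calls near it, at 16.1 and 12.3, lay 2093 and 1882 bp from the same Lockd start, and neither was among the leading peaks of a replicate. Only the stronger promoter call was a leading peak in both libraries, and its window, which ends upstream of the start site, is shown for that reason. The capitals mark a CCAAT box.
Cdkn1b promoter, chr6:134920110-134920309, plus strand: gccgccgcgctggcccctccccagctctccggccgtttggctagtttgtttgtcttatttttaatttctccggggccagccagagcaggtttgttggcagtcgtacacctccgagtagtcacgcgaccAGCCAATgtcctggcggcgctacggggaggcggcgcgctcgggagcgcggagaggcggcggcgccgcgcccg

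Cdkn2c, which encodes the INK4 inhibitor p18, had a strong promoter peak and a weak call beside it, both over the untranslated region. The first (chr4:109666722-109667217) lay 219 bp downstream of a start site with a signal of 53.5, rank 2651. It ranked 1808 in replicate 1 and 14568 in replicate 2, a leading peak in both but far lower in the second. The weak call, 18 bp downstream, had the lowest signal of the 28, 8.57, while its score, the authors' scaled IDR with a maximum of 1000, was 1000. Such a maximal score was given to 14 of the 28 peaks and to 37.4% of all assigned peaks. Rb1, which encodes the retinoblastoma protein, had 2 intergenic peaks of near equal signal, 28.1 at 21619 bp upstream and 27.9 at 23574 bp upstream (chr14:73347193-73347688 and chr14:73349148-73349643). The next protein-coding start site was that of Itm2b, at 28504 and 26549 bp. Both summits were nearer to the start of the pseudogene Gm49131 (12349 and 14304 bp), and with start sites of all gene types Rb1 had 0 peaks. The first ranked 8478 and 8282 in the replicates and the second 11169 and 14221. Both were leading peaks in both libraries, and the ranks of the first differed least among the members' peaks. At the Rb1 promoter the only pooled call reached 11.3, rank 66632.

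**Figure D2:**
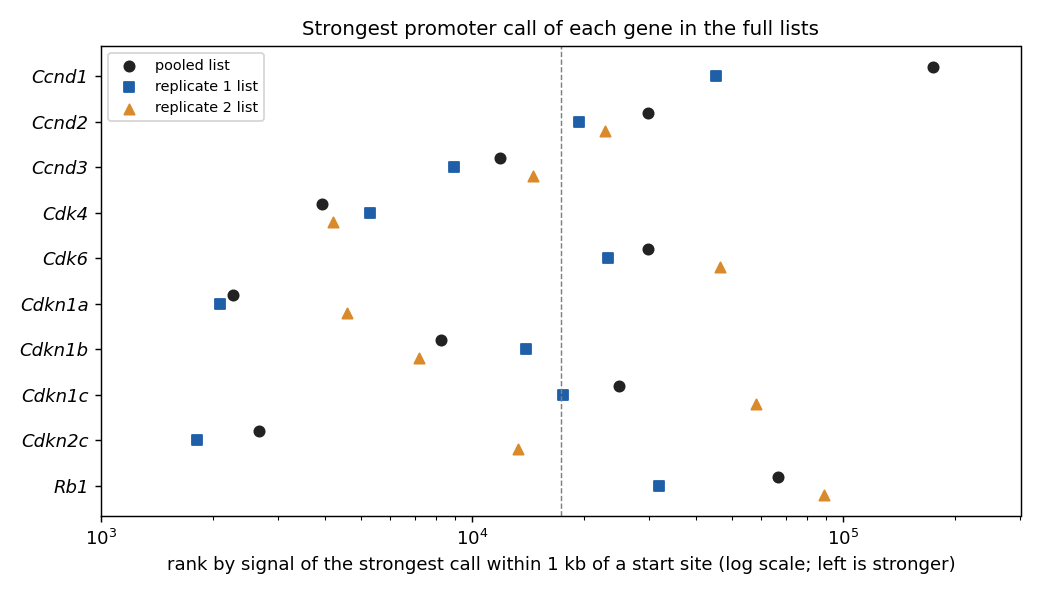
For each gene the points give the rank by signal (log scale, left is stronger) of its strongest call within 1 kb of a start site in the pooled, replicate 1 and replicate 2 lists, and the dashed line marks rank 17372. Cdk4, Cdkn1a, Cdkn1b, Cdkn2c and Ccnd3 have all their points left of the line, and Ccnd1 has no replicate 2 call.

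The replicates were compared at these loci by asking which optimal peaks had a summit of each replicate's leading peaks within 100 bp. Of the 28 member peaks 15 had one in both replicates, or 53.6% (95% exact interval 33.9% to 72.5%), against 40.2% of all assigned peaks. The interval holds that value. It counts the 28 peaks as independent, although some are neighbouring calls of 1 site. The optimal list was made from these same reads, so the share measures how the lists overlap and is not independent support for a peak. In replicate 1 the count was 19 of 28 (67.9%, against 65.2% of all assigned peaks) and in replicate 2 it was 18 (64.3%, against 55.2%). A shared peak was present at 9 of the 10 members, all but Cdk6. Of all protein-coding genes 18.9% have one, which is 4134 of the 6960 with a peak. Since every member had a peak, those 6960 genes are the closer comparison. The conservative list held 21 of the 28 peaks (75.0%, against 67.3%).

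In the full lists 22 of the 28 peaks had a call of their own in both replicates, against 11933 of all 15570 assigned peaks. A call counted when its summit lay inside the peak, and each call was given to 1 peak. Of the 22 member peaks, 12 ranked higher in replicate 1 (54.5%, against 6328 of 11933 over all assigned peaks). The median factor between the 2 ranks was 1.71, against 2.36 over all. The order of the members by their strongest call was the same for the first 2 places in both libraries, Ccnd3 and then Cdkn1c, and Cdk4 was the seventh, Rb1 the eighth and Cdk6 the tenth in both. Cdkn1b and Cdkn2c changed places most. Cdkn1b was the ninth in replicate 1 and the third in replicate 2, and Cdkn2c the third and the ninth. The strongest call of a member was not always the same one in both libraries. For Cdkn1b it lay 186 bp upstream in replicate 1 and 7940 bp downstream in replicate 2. For Cdkn2c it lay 261 and 468 bp downstream, and for Cdk6 211 and 37727 bp downstream. It also differed for Ccnd1 (57250 and 1788 bp upstream) and Cdkn1a (934 and 1780 bp downstream). Between Cdkn2c, Cdkn1a, Ccnd2 and Ccnd1, whose strongest optimal signals lay between 48.4 and 58.6, the order was not the same in the 2 libraries.

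**Figure D3:**
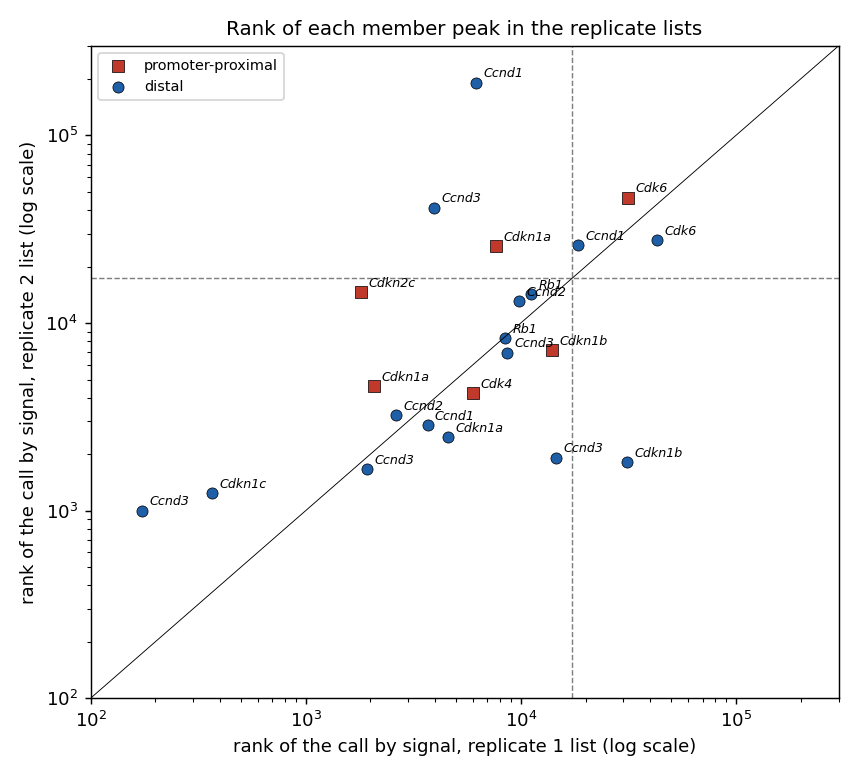
Each point is 1 of the 22 peaks with its own call in both replicate lists, at its rank by signal in replicate 1 and replicate 2 (log axes), with promoter-proximal peaks as squares, rank 17372 dashed and equal ranks as a line. The strongest Ccnd3 peak and the Cdkn1c peak lie at the lower left, and a Ccnd1 peak stands far above the line.

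Counting each library alone gave nearly the same total and shifted single genes. The leading peaks of replicate 1 gave the members 25 peaks and those of replicate 2 gave 27, each at 9 of 10 members. Cdk6 had none in either. Ccnd3 had 7 and 8, and Ccnd1 3 and 5. Over all protein-coding genes 35.0% and 33.0% had a leading peak of replicates 1 and 2. The members were chosen with earlier results of these data known, so their difference from these shares only describes the list. Cdkn1b had 1 in replicate 1 and 3 in replicate 2, against 5 in the optimal list. The conservative list, which is shorter than the optimal one, gave Ccnd2 5 peaks in place of 2 and Cdk4 3 in place of 1. Of the leading calls at the members, 4 of 25 in replicate 1 and 7 of 27 in replicate 2 had a summit inside no optimal peak. The same share over all leading calls was not counted, so whether these counts are usual for the lists is unknown.

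**Figure D4:**
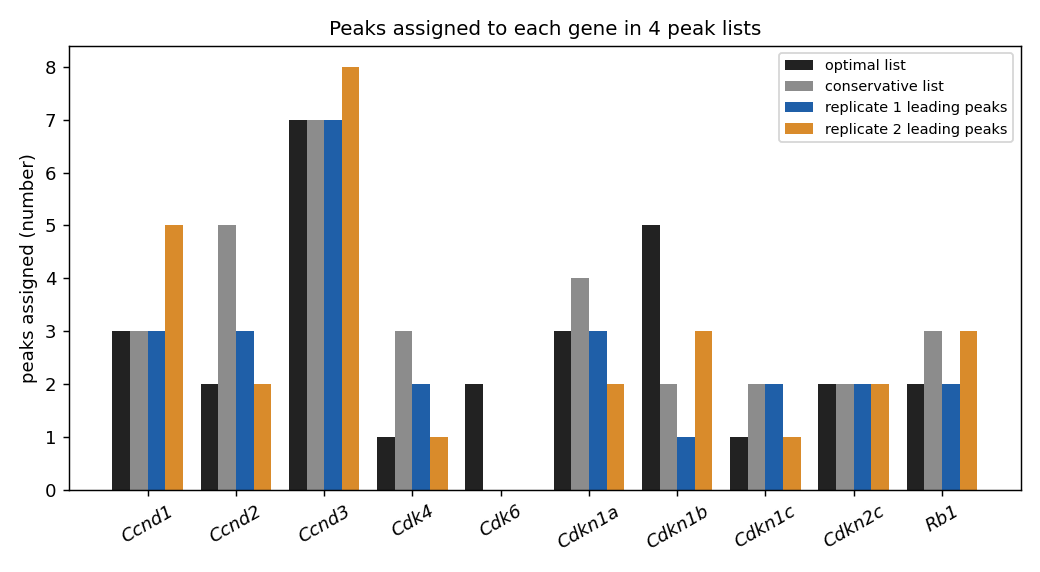
Bars give the number of peaks assigned to each gene in the optimal list, the conservative list and the leading peaks of replicates 1 and 2. Ccnd3 has 7 or 8 in every list, and Cdk6 has 2 in the optimal list and none in the others.

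Under the peaks, 20 motifs were searched in the 200 bp centred on each summit, on both strands, and set beside the share of all 17339 windows on the main chromosomes. Motifs may overlap each other, and each was counted alone. The GC box GGGCGG, bound by SP and KLF factors, was in 11 of 28 windows (39.3%, against 21% of all). It was in 7 of the 20 distal windows (35.0%), against 8.82% of all distal windows, and in 4 of the 8 promoter windows, against 45%. The distal member windows were also richer in G and C, with a median of 58.0% against 50.5% over all distal windows, and the part of base composition in the count was not tested. The 7 distal windows with a GC box lay at Ccnd1 (2), Ccnd2, Ccnd3 (2), Cdkn1a and Cdkn1b.

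Motifs of factors known in heart development were present at shares near or below those of all windows. The E-box CAGCTG was in 4 windows (14.3%, against 17.8% of all), the GATA site AGATAA in 4 (14.3%, against 13.1%), the TEAD site GGAATG in 3 (10.7%, against 14.9%), the MEIS site TGACAG in 3 (10.7%, against 18.1%) and the NKX2 site TNAAGTG in 3 (10.7%, against 9.72%). The MEF2 site and the CArG box, searched by their consensus, were in 0 windows (2.40% and 1.44% of all), as was the T-box site AGGTGTGA (0.744%). With 28 windows a motif at such shares would be found in few or none. The AP-1 site TGANTCA was in 3 windows, at Ccnd1, Ccnd3 and Cdkn1a (10.7%, against 7.41%).

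The other motifs, some of them sites of factors known to act on cell cycle genes, were each in 2 windows or fewer. Their shares lay above those of all windows for some and below for others, and no pattern is read from such counts. The E2F words TTTCCCGC and TTTGGCGC were in 0 windows (0.894% of all), the p53 site, searched as a single decamer, in 1, at Ccnd3 (3.57%, against 5.96%), and the forkhead site TGTTTAC in 2, at Ccnd3 and Cdk6 (7.14%, against 3.03%). The glucocorticoid receptor palindrome was in 2 windows, those of the strongest Ccnd3 and the strongest Cdkn1a peak (7.14%, against 1.37% of all). The cyclic AMP response element TGACGTCA was in 1 (3.57%, against 1.05%), the STAT site TTCNNNGAA in 2 (7.14%, against 6.79%), the CCAAT box AGCCAAT in 2 (7.14%, against 3.97%) and the CTCF site in 1, at Ccnd3 (3.57%, against 0.732%). The ETS site CCGGAAG (6.85% of all) and the TCF/LEF site CTTTGAT (2.39%) were in 0. A match is a run of letters and not a measured binding site.

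**Figure D5:**
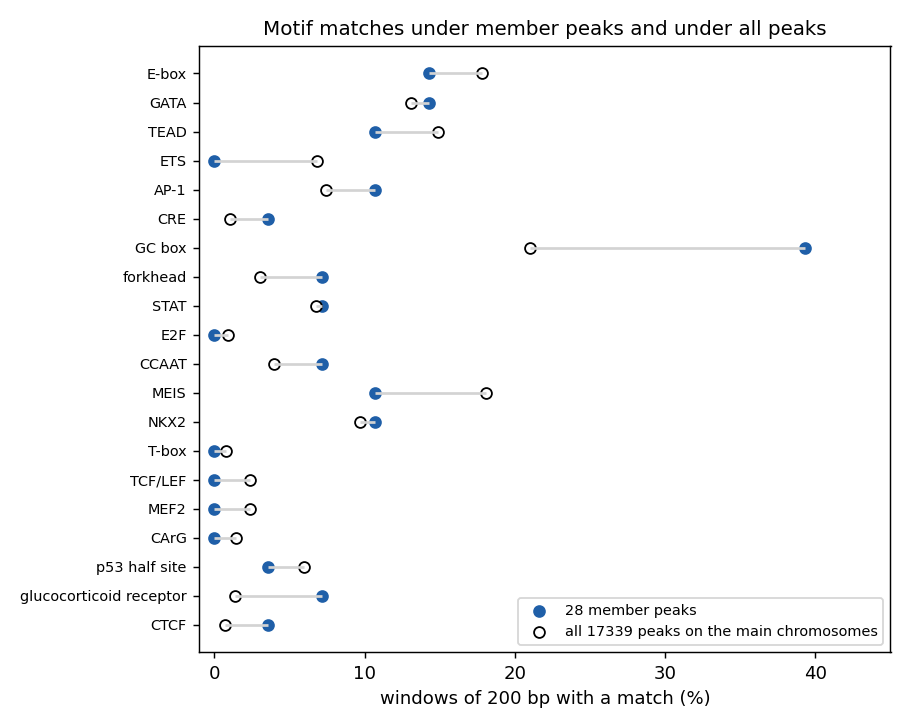
For each of 20 motifs the filled point gives the percentage of the 28 member windows of 200 bp with a match and the open point that of all 17339 windows. The GC box shows the widest gap, 39.3% against 21%, and several motifs stand at 0 among the members.

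The rest of the cell cycle machinery was counted in the same way. Of 50 further cell cycle genes 21 had a peak (42.0%, against 31.9% of all genes), 28 peaks in all, none with more than 2. A promoter peak was present at 17 of the 50, against 19.0% of all genes. That is 17 of the 21 with a peak, against 4146 of the 6960 over all genes with a peak. The genes with 2 peaks were Aurkb, Cdc25a, Cdk1, Cdk7, Fbxw7, Myc and Trp53. Cdk7, the kinase that activates other cyclin-dependent kinases, had the highest signal of these at 59.4, and Fbxw7, a ubiquitin ligase subunit that targets cyclin E, reached 51.5. Among the other INK4 genes Cdkn2d, which encodes p19, had 1 promoter peak of 37.0, and Cdkn2a and Cdkn2b had none. The relatives of Rb1, Rbl1 and Rbl2, had none, and of the 10 E2F and DP genes 4 had 1 each (E2f6, E2f7, E2f8 and Tfdp2). Ccne1, Ccne2, Ccna2, Ccnb1 and Ccnb2, the E, A and B cyclins of the list, had no peak, where 31.9% of all genes had one. The 3 D cyclins had 12, of which 7 were at Ccnd3. Both lists were chosen with earlier results of these data known, so these counts give no contrast between classes of cyclins.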

How the data were processed

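EP300 ChIP-seq peaks of newborn heart were deposited as 5 lists on mm10. Replicate 1 was called against 2 control alignment files, replicate 2 against 1 and the pooled reads against 2, per the file headers, and the optimal and conservative lists were derived from those lists by the irreproducible discovery rate (IDR). Which caller and which IDR cutoff were used is not given in the sources used here. The authors' values per peak are a signal value, a deposited −log10 of the q-value and, in the IDR lists, a scaled IDR score.

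Summits were assigned to the nearest of 54361 start sites of protein-coding transcripts in GENCODE M21 (GRCm38) within 100 kb, and 33 peaks off the main chromosomes were left out. Ranks were taken by signal within each list. Windows were read from the RefSeq GRCm38 sequence. Shares carry 95% Clopper-Pearson intervals. Assignment and summit matching were tested on simulated data. The members, the gene and marker lists and the motifs were chosen with earlier results of these data known. Named are all members with every peak they were assigned and, of the further cell cycle genes, those with most peaks (7 tied at 2); other genes were named after their values were seen. The result of 1 marker gene is not reported here. Alternatives were other peak lists, thresholds, distances, start sites, numbers of leading peaks, merged sites, motif windows and each replicate alone. The tools were pandas 2.3.3 and numpy 2.4.6 under Python 3.11.15, with intervals from SciPy 1.17.1 and plots from matplotlib 3.10.9.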

Additional observations from a re-analysis of the deposited data

How the results depend on the processing

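The total of 28 member peaks stayed within 1.5 times under 8 of the 11 alternatives tried, and none gave fewer than 8 members with a peak. It was 14 with signals above the median, 16 when peaks needed a −log10 q of 2 or more, and 43 when every peak within 100 kb of a member counted, whichever gene was nearest. With each replicate alone it was 25 to 27, at 9 members, with 25.9% to 32% of peaks promoter-proximal. The conservative list gave 31 peaks at 9 members. Start sites of all gene types left 19 peaks at 8 members, without Cdkn1c and Rb1, and 1 start site per gene left Ccnd3 with 4. The share of peaks in both replicates rose to 75.0% with 50000 leading peaks and was 35.7% with 10000, and it was 64.3% to 67.9% when 1 replicate was asked for. Matches of motifs in member windows, 42 over 20 motifs at 200 bp, numbered 26 at 100 bp and 58 at 300 bp, as fewer or more bases were searched. For single members 73 of 110 recounts stayed within 1.5 times and 37 did not, 28 of them by 1 or 2 peaks. No paired analysis was possible because the 2 samples form 1 group. The depth is unknown, so whether weak calls such as those at Cdk6 are limited by it cannot be told.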

Other observations

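Around 6 of the members the optimal list held 15 peaks within 100 kb of a member's start site that were nearer to another gene. Cdkn1b had 5 of them, and 4 had a higher signal than its own strongest peak of 39.4. These reached 83.9 at the promoter of Crebl2, a leucine zipper gene, 71.0 at that of Apold1, an endothelial gene, 46.5 at 4903 bp from the Apold1 start site, and 40.3 at the promoter of Gpr19, an orphan receptor. The other, near Ddx47, reached 29.4. Cdk4 had 5, the strongest 52.2 at the promoter of the phosphatase gene Ctdsp2. Rb1 had 2, of 47.3 and 31.4, near Itm2b, a membrane protein gene. Cdkn2c had 1 of 46.3 at Faf1, 9261 bp from its own start site, and Ccnd2 and Cdkn1a had 1 each (24.7 near Tigar and 22.7 near Stk38). Ccnd1, Ccnd3, Cdk6 and Cdkn1c had none. No peak of another gene lay inside the body of a member.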
